A study of Mus musculus with 6 samples.

Results

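The genes of the telomere-capping complex shelterin and of telomerase were followed as 10 genes, chosen by name from the 43346 genes in the table of counts. They comprise the 7 shelterin genes *Terf1*, *Terf2*, *Terf2ip*, *Tinf2*, *Acd*, *Pot1a* and *Pot1b*, the telomerase genes *Tert* and *Dkc1*, and the helicase gene *Rtel1*. Each name matched a single row, and all 10 genes had enough counts to be tested. RNA-seq was performed on primary mouse adult fibroblasts (MAFs) that were derived from ear tissue (adult females, strain C57BL6/J), with 3 control and 3 senescent samples. The control group had a sham irradiation, and the senescent group an X-ray dose of 20 Gy with a culture period of 21 days after it. All 6 samples were kept at 3% oxygen, were treated with dexamethasone at 100 nM, which sets the circadian clock of cultured cells to a common phase, and were collected 12 hours later, so a single time point was measured. The sources used here do not say how many animals or separate cultures the samples came from, so p-values measure the spread between these samples, which may be technical. In bulk RNA, fewer cells expressing a gene and less of its RNA per cell cannot be told apart.

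Telomeres are TTAGGG repeats at chromosome ends that shorten as cells divide and that must be hidden from the DNA damage response. TRF1 (*Terf1*) and TRF2 (*Terf2*) bind the double-stranded repeats, RAP1 (*Terf2ip*) rides on TRF2, TIN2 (*Tinf2*) bridges the duplex-binding proteins, and TPP1 (*Acd*) joins TIN2 to POT1, which covers the single-stranded overhang and for which mice carry a pair of genes, *Pot1a* and *Pot1b*. Telomerase adds repeats with its reverse transcriptase (*Tert*), copying an RNA template that dyskerin (*Dkc1*) stabilizes, and RTEL1 (*Rtel1*) unwinds telomeric loops and G-quadruplexes during replication. Unlike most human fibroblasts, mouse somatic cells often retain *Tert* RNA.

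Between 50288454 and 82229553 counts were obtained per library, and the 10 genes had between 392 and 7900 counts in each. Levels are given as CPM (a gene's counts relative to the library's total on tested genes, scaled by the TMM method). The test was the quasi-likelihood test of edgeR, with Benjamini-Hochberg adjustment over 17589 genes. The irradiated cells carried marks of arrest, with a log2 fold change of 2.33 for *Cdkn1a* (p21) and of -5.20 for the proliferation gene *Top2a*. No replicate pair was identical or within sampling noise. Senescent replicate 3 stood apart: the 10 genes lay a median of 0.235 (log2) from the mean of the rest of the group there, against 0.0212 to 0.0950 in the other 5 libraries. This was not limited to the 10 genes. Over tested genes with at least 50 counts in a pair, the mean squared difference was taken relative to sampling noise. It was 67.8 and 94.3 for the pairs with senescent replicate 3, and 3.67 for senescent replicates 1 and 2. Control pairs ranged from 3.14 to 13.2.

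Most of the 10 genes were less abundant after irradiation. At the adjusted p of 0.05 used for calls, 8 fell and 2, *Terf2ip* and *Dkc1*, rose, where 34.1% of all tested genes fell and 36.2% rose. In either direction, 70.3% of all tested genes passed, so passing the threshold is by itself common in these data. In each of the 10 genes the 3 control and the 3 senescent libraries did not overlap, which was also so for 75.3% of all tested genes (37% with senescent libraries lower, as in 8 of the 10, and 38.4% with senescent libraries higher, as in 2). The median log2 fold change was -0.66 over the 10 genes, -0.72 over the 7 shelterin genes and 0.01 over all tested genes. With the limit that the study's methods give, a raw p below 0.05 with more than a 2-fold difference, 3 of the 10 genes passed, *Rtel1*, *Terf1* and *Tinf2*, all lower, where 12.3% of all tested genes passed in that direction, 17.8% in the other and 30.1% in either. Without senescent replicate 3, 8 genes were again lower, 2 higher and 3 past the limit of the methods. That fit called more genes in general, with 6643 of 17779 tested genes lower and 7052 higher. The share of all genes past the limit of the methods was not counted for it. The results text of the study prints a different p limit, which was not applied here.

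**Figure D1:**
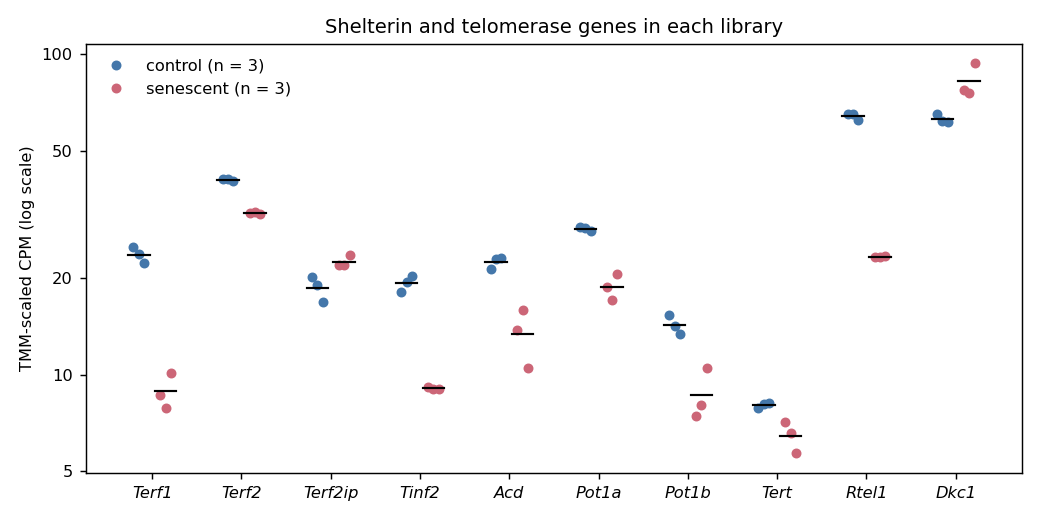
TMM-scaled CPM (log axis) of the 10 genes, with 1 point for each of the 3 control and 3 senescent libraries and a black line at the group mean. The groups are separated in all 10 genes, and senescent values are higher only in *Terf2ip* and *Dkc1*.

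**Figure D2:**
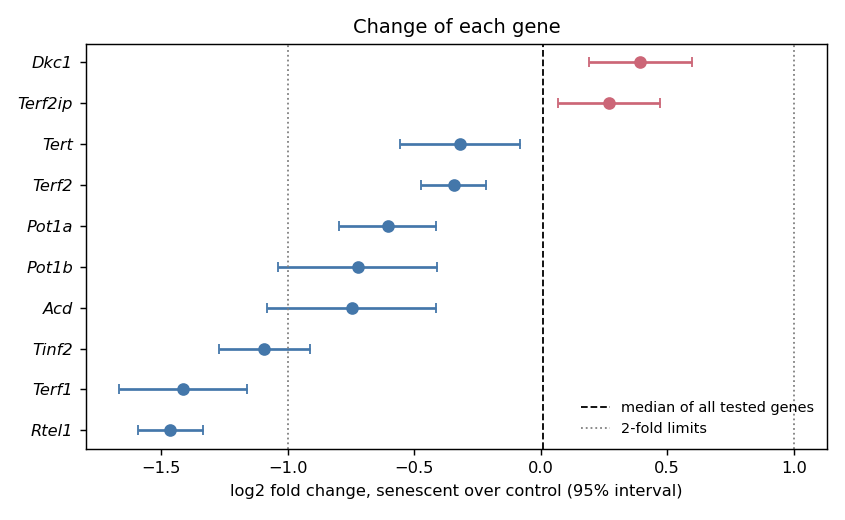
Log2 fold change of each gene, senescent over control, with its 95% interval from edgeR's quasi-likelihood fit (n = 3 per group), ordered by size. The dashed line is the median of all tested genes, the dotted lines mark a 2-fold change, and *Rtel1*, *Terf1* and *Tinf2* lie beyond the lower one.

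*Terf1* (ENSMUSG00000025925, chromosome 1 of mm10 from 15805646 to 15844052, plus strand) encodes the duplex repeat-binding protein TRF1, which helps replication forks pass through telomeres. It was at 24.98, 23.9 and 22.3 CPM in the control libraries and at 8.66, 7.87 and 10.2 CPM in the senescent libraries. The highest senescent library was thus below the lowest control library by more than the spread within either group. Mean levels were 23.7 ± 1.36 and 8.90 ± 1.16 CPM (SD, n = 3 per group), which is 2.66-fold lower (log2 fold change -1.41, standard error 0.11, adjusted p = 1.23e-05, edgeR).

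*Terf2* (ENSMUSG00000031921, chromosome 8 from 107069400 to 107096547, minus strand) encodes TRF2, which folds the chromosome end into a protective loop. It was at 40.7, 40.9 and 40.3 CPM in control and at 32.0, 32.2 and 31.8 CPM in senescent cells. The replicates were tight in both groups, and the decrease was small, 1.27-fold (log2 fold change -0.34, standard error 0.06, adjusted p = 0.00073, edgeR). *Terf2ip* (ENSMUSG00000033430, chromosome 8 from 112011359 to 112020528, plus strand), which encodes the TRF2 partner RAP1, was at 20.2, 19.1 and 16.8 CPM in control and at 22.0, 22.0 and 23.7 CPM in senescent cells. Its lowest senescent value exceeded its highest control value, by less than the range of the control libraries. The increase was 1.21-fold (log2 fold change 0.27, standard error 0.09, adjusted p = 0.0242, edgeR), and this call was lost without control replicate 2 (0.0616) or control replicate 3 (0.104).

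Since TRF1 and TRF2 bind the same repeats, their counts were set against each other within each library, which needs no scaling between libraries. The ratio of *Terf1* to *Terf2* counts was 0.613, 0.584 and 0.553 in control replicates 1, 2 and 3 and 0.270, 0.245 and 0.319 in senescent replicates 1, 2 and 3. Every senescent ratio lay below every control ratio, with a log2 difference of -1.08 (exact permutation test, two-sided, p = 0.1, the smallest that 3 samples against 3 can give). Per kb of exon, there were 0.581 *Terf1* for each *Terf2* in control and 0.276 in senescent cells.

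*Tinf2* (ENSMUSG00000007589, chromosome 14 from 55679083 to 55681817, minus strand) encodes TIN2, the subunit that holds both duplex-binding proteins and TPP1. It was at 18.1, 19.5 and 20.4 CPM in the control libraries and at 9.18, 9.01 and 9.03 CPM in the senescent libraries. The senescent libraries lay close together, and the level was 2.13-fold lower than in control cells (log2 fold change -1.09, standard error 0.08, adjusted p = 7.16e-06, edgeR). *Acd* (ENSMUSG00000038000, chromosome 8 from 105698159 to 105701095, minus strand), which encodes TPP1, the subunit that also recruits telomerase, was at 21.5, 23.0 and 23.2 CPM in control and at 13.8, 16.0 and 10.5 CPM in senescent cells. Senescent replicate 3 was the lowest, and the senescent mean of 13.4 ± 2.76 CPM had the widest relative spread of the 10 genes. The decrease of *Acd* was 1.68-fold (log2 fold change -0.75, standard error 0.14, adjusted p = 0.00207, edgeR), and its log2 fold change was -0.58 without that library.

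Both genes for the overhang-binding protein fell. *Pot1a* (ENSMUSG00000029676, chromosome 6 from 25743737 to 25809246, minus strand), known for repressing the damage signal at telomeres, was at 28.9, 28.8 and 28.1 CPM in control and at 18.7, 17.1 and 20.6 CPM in senescent cells. Its groups were well apart, and the decrease was 1.52-fold (log2 fold change -0.60, standard error 0.08, adjusted p = 0.000324, edgeR). *Pot1b* (ENSMUSG00000024174, chromosome 17 from 55652025 to 55712628, minus strand), known for limiting trimming of the opposite strand, was at 15.4, 14.2 and 13.4 CPM in control and at 7.45, 8.05 and 10.5 CPM in senescent cells. The decrease of *Pot1b* was 1.65-fold (log2 fold change -0.72, standard error 0.14, adjusted p = 0.00176, edgeR), and senescent replicate 3 was here the highest of its group. The ratio of *Pot1a* to *Pot1b* counts was 1.88, 2.02 and 2.10 in the control and 2.51, 2.12 and 1.96 in the senescent libraries. These ranges overlapped, and a difference of 0.13 on the log2 scale did not exceed the replicate spread (exact permutation test, two-sided, p = 0.4, smallest possible 0.1). The overlap rests on senescent replicate 3: without it both remaining senescent ratios lay above all control ratios, with a log2 difference of 0.21 (exact permutation p = 0.1, the smallest possible), whereas without senescent replicate 1 the difference was 0.03 (exact permutation p = 0.7). The transcripts of these genes share exact runs of at most 41 bases, and no 100-base stretch of *Pot1a* or *Pot1b* occurs in another annotated gene.

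**Figure D3:**
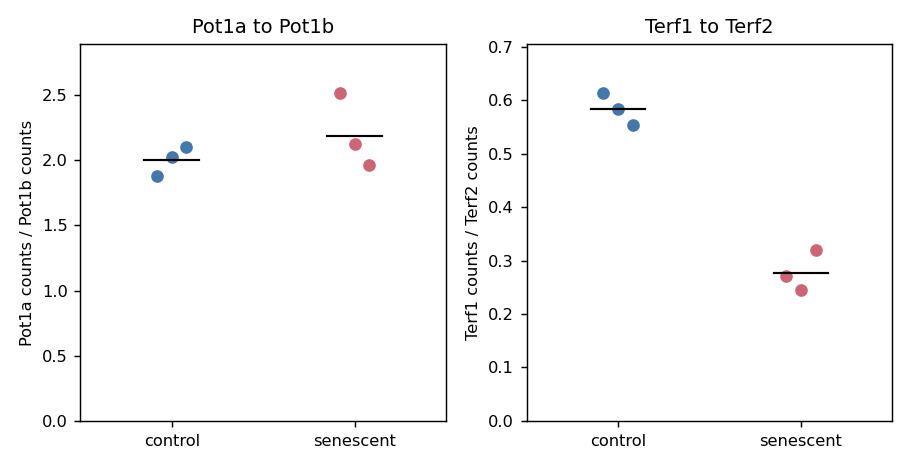
Ratio of counts within each library (linear axes from 0) for *Pot1a* to *Pot1b* and *Terf1* to *Terf2*, with 1 point per library and a black line at the geometric mean of each group (n = 3). The *Terf1* to *Terf2* ratio lies between 0.553 and 0.613 in control and between 0.245 and 0.319 in senescent libraries, while the *Pot1a* to *Pot1b* ranges overlap.

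*Rtel1* (ENSMUSG00000038685, chromosome 2 from 181319739 to 181356616, plus strand) had the largest log2 fold change of the 10 genes when all libraries were used, -1.46 against -1.41 for *Terf1*, with 95% intervals that overlap. Without senescent replicate 3, *Terf1* (-1.52) changed more than *Rtel1* (-1.46). *Rtel1* was at 65.3, 65.3 and 62.6 CPM in the control libraries and at 23.3, 23.3 and 23.4 CPM in the senescent libraries. The senescent libraries were nearly equal, and the level was 2.76-fold lower than in control cells, with a 95% interval of the log2 fold change from -1.59 to -1.33 (adjusted p = 2.4e-07, edgeR). Of 12935 other tested genes whose mean count reached 100, *Fgfr2*, *Atp2b4* and *Zmym3* had the pattern most like that of *Rtel1* over the 6 libraries, with root mean square differences of 0.0194, 0.0235 and 0.0272 in centered log2 CPM.

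*Tert* (ENSMUSG00000021611, chromosome 13 from 73627001 to 73649041, plus strand), the catalytic subunit, was detected in every library. It was at 7.86, 8.10 and 8.15 CPM in control, from 392, 484 and 399 counts, and at 7.11, 6.59 and 5.69 CPM in senescent cells, from 394, 522 and 480 counts. Senescent values were below all control values, and the decrease was 1.25-fold with a 95% interval of the log2 fold change from -0.55 to -0.08 (adjusted p = 0.0229, edgeR). This call was lost without control replicate 2 (adjusted p = 0.0711, edgeR), control replicate 3 (0.0727) or senescent replicate 2 (0.0510), and with scaling by library size alone (0.0664). *Dkc1* (ENSMUSG00000031403, chromosome X from 75095854 to 75109777, plus strand), whose product also modifies ribosomal RNA, was at 64.9, 61.8 and 61.5 CPM in control and at 77.6, 75.9 and 93.6 CPM in senescent cells. All senescent libraries were higher, senescent replicate 3 most of all, and the increase was 1.31-fold (log2 fold change 0.39, standard error 0.09, adjusted p = 0.00423, edgeR), with a log2 fold change of 0.30 without that library.

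Because the study asks about BMAL1, which binds the E-box CACGTG, and about AP-1, which binds TGACTCA, both were searched on both strands of RefSeq promoter windows of build GRCm38.p6, from 250 bases before to 50 after each start. Windows were matched for 9 of the 10 genes, all but *Terf1*. None of the 9 held the E-box, which 7.15% of all 32851 windows hold, and *Rtel1* alone held the AP-1 sequence, which 5.2% hold. The GC box GGGCGG, a common element of housekeeping promoters, was found in 6 of the 9 genes and in 35.7% of all windows. The 9 genes had 11 windows, as *Pot1b* and *Terf2* have extra ones, so counts of genes and shares of windows differ in unit. Their windows held 7 to 24 CG dinucleotides, where the median of all windows was 7. *Rtel1*, which alone held the AP-1 sequence, and *Tert*, the catalytic gene, are shown up to the start site. Capitals mark TGACTCA, whose first base lies at -66 from the start of *Rtel1* (chr2:181319474-181319723, plus strand), and the GC boxes at -51 and -14 of *Tert* (chr13:73626661-73626910, plus strand), which read CCGCCC on this strand. The GC box of *Rtel1* at -39 is left in lower case. Binding was not measured in these RNA data, and a match of letters is a description only. The study measured BMAL1 binding by ChIP-seq in matched control and senescent cells, and those data were not used here.
Rtel1: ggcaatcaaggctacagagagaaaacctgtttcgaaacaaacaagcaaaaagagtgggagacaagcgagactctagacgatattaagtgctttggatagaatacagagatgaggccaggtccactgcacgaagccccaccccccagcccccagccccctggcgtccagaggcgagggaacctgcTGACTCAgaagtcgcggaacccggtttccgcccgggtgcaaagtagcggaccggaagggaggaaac
Tert: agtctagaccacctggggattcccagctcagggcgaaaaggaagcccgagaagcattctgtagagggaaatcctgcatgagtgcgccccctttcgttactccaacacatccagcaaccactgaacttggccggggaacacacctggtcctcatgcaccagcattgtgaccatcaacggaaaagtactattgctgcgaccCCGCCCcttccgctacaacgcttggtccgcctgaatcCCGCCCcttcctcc

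Levels of different genes were compared per kb of the exon length that the table gives. GENCODE M21 has longer models for *Acd*, *Tinf2*, *Terf2ip*, *Pot1b* and *Tert* (for *Acd*, 3625 against 1425 exon bases), so the order rests on the table's lengths. In control cells, the order was *Acd* (15.8 ± 0.659 CPM per kb), *Dkc1* (15.2 ± 0.462), *Tinf2* (11.1 ± 0.673), *Rtel1* (9.74 ± 0.240), *Terf2* (8.84 ± 0.0712), *Terf2ip* (5.20 ± 0.478), *Terf1* (5.14 ± 0.295), *Pot1b* (4.10 ± 0.286), *Pot1a* (3.30 ± 0.0479) and *Tert* (2.35 ± 0.0458, SD, n = 3). *Acd* and *Dkc1* overlapped, as did *Terf2ip* and *Terf1*, and the other neighbors were separated in all 3 libraries. In senescent cells *Dkc1* led with 20.0 ± 2.37 CPM per kb, followed by *Acd* (9.43 ± 1.93), *Terf2* (6.96 ± 0.0361), *Terf2ip* (6.27 ± 0.284), *Tinf2* (5.23 ± 0.0549) and *Rtel1* (3.53 ± 0.00562). The lowest levels were those of *Pot1b* (2.48 ± 0.459), *Pot1a* (2.17 ± 0.202), *Terf1* (1.93 ± 0.251) and *Tert* (1.89 ± 0.210), of which each overlapped the next. *Tert* stood above 38.7% of tested genes per kb in control and 37.0% in senescent cells, while *Rtel1* moved from 68.0% to 47.6% and *Terf1* from 52.9% to 37.5%.

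**Figure D4:**
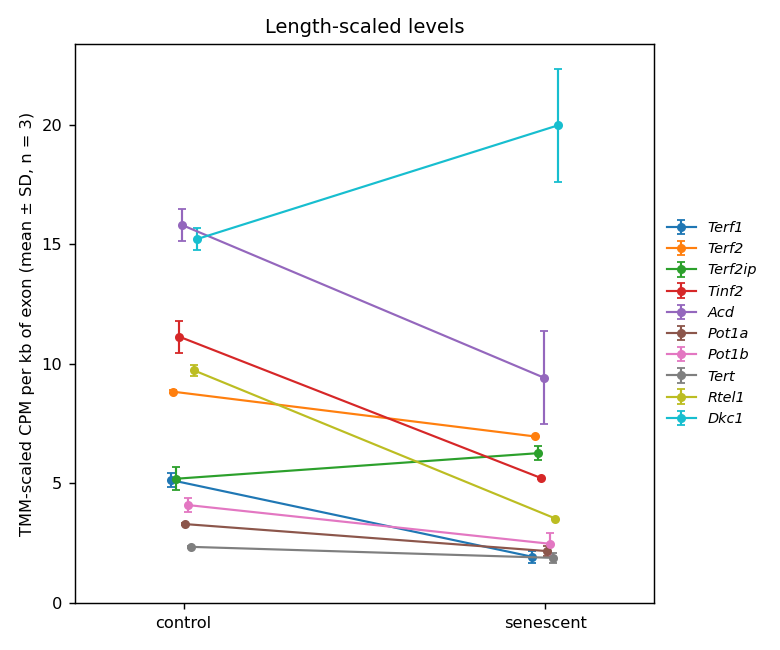
TMM-scaled CPM per kb of exon (linear axis from 0) of the 10 genes in control and senescent cells, as mean ± SD (n = 3 per group), with a line joining the means of each gene. *Dkc1* and *Terf2ip* rise, the other lines fall, and *Pot1b*, *Pot1a*, *Terf1* and *Tert* end close together near 2 CPM per kb.

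The partners of shelterin and telomerase were examined with 3 lists holding 39 further genes, all of which were tested. Together, 21 were lower, 8 were higher and 10 did not pass an adjusted p of 0.05 (edgeR), with a median log2 fold change of -0.36. The 29 called genes are 74.4% of the 39, close to the 70.3% called over all tested genes. By direction, 53.8% of the 39 were lower and 20.5% higher, against 34.1% and 36.2% of all tested genes. Without control replicate 1, 5 were higher in place of 8, where 6247 of 18263 tested genes were higher.

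The CST complex fills in the strand opposite the overhang after telomerase has acted. Of its 3 genes, *Ctc1* was lower, with a log2 fold change of -1.40 (adjusted p = 3.18e-06, edgeR), at 68.0, 69.0 and 69.0 CPM in control and 28.0, 27.0 and 22.8 CPM in senescent cells. *Stn1* (listed as *Obfc1*) was lower too (-0.41), and *Ten1* had a log2 fold change of -0.36 that did not pass (adjusted p = 0.0521, edgeR).

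Of 12 genes for the telomerase ribonucleoprotein and its assembly, 5 were higher, 3 were lower and 4 did not pass, with a median log2 fold change of 0.03. The share called was 66.7%, against 70.3% of all tested genes. By direction, 41.7% were higher and 25% lower, against 36.2% and 34.1% of all tested genes. Those with the smallest p among the higher were *Pinx1*, which encodes a telomerase inhibitor (log2 fold change 0.73), *Shq1* (0.65) and *Naf1* (0.90), which both encode assembly chaperones of dyskerin complexes. *Wrap53*, which brings telomerase to Cajal bodies, was lower (-0.94), as were *Tep1* (-0.46) and the RNA-trimming nuclease gene *Parn* (-0.20). Of the dyskerin partners, *Nhp2* was higher (0.44), whereas *Nop10* and *Gar1* had log2 fold changes of -0.02 and 0.08 with 95% intervals from -0.17 to 0.12 and from -0.10 to 0.25. *Terc*, the template RNA, which carries no poly(A) tail and is poorly captured by this library type, had 5 to 20 counts per library, and its log2 fold change of -0.31 had a 95% interval from -1.47 to 0.86, so a difference was not detectable at this depth.

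Of 24 shelterin-binding and end-processing factors, 16 were lower, 3 were higher and 5 did not pass, with a median log2 fold change of -0.51. The share called was 79.2%, against 70.3% of all tested genes, and the share lower was 66.7%, against 34.1%. The smallest p among the lower had *Pif1*, a helicase gene that fell from 20.1 ± 0.748 to 0.476 ± 0.0484 CPM (SD, n = 3 per group), *Blm*, which encodes the Bloom helicase (log2 fold change -2.45), and the nuclease gene *Exo1* (-4.48). *Ercc4* (0.28), *Tnks* (0.21) and *Ercc1* (0.45) were higher. *Tnks* encodes tankyrase, and the products of *Ercc4* and *Ercc1* form a nuclease. The groups overlapped in *Ercc1*, where senescent replicate 3 was at 23.9 CPM and the other senescent libraries at 36.03 and 37.3 CPM.

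**Figure D5:**
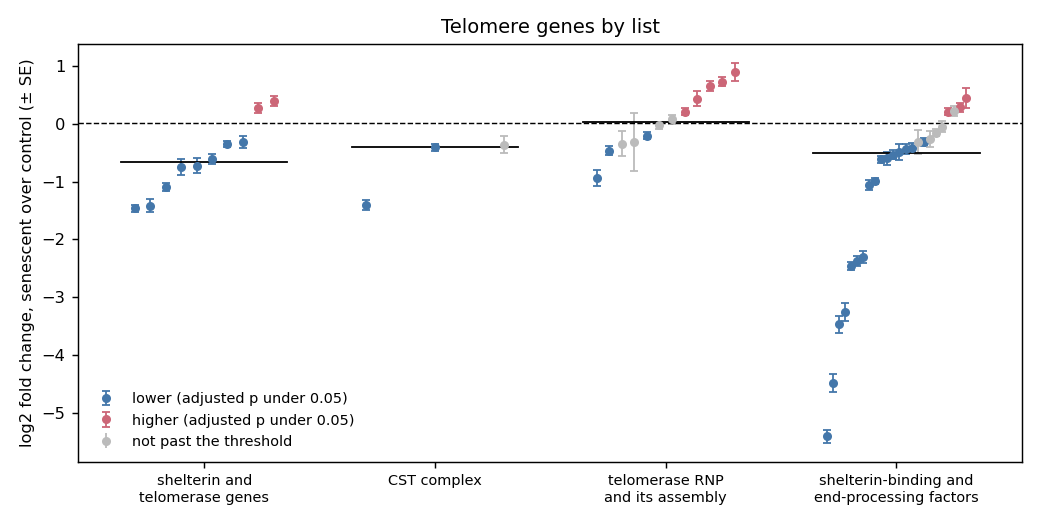
Log2 fold change, senescent over control, with its standard error for the 10 genes and for the 3 lists of partners, 1 point per gene, ordered by size within each list. Solid lines are list medians, the dashed line is the median of all tested genes, and colors show which genes passed an adjusted p of 0.05 in each direction.

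Neighboring genes can alter the counts, up or down depending on the counting settings, where exons overlap. On the opposite strand, *Gmpr2* shares 118 exon bases with *Tinf2*, *Gm6793* 108 with *Terf2ip*, *Mpp1* 45 with *Dkc1* and *Carmil2* 29 with *Acd*. The libraries were stranded, but the strand setting of the counting is not given in the sources used here. The part of these overlaps in the results was not tested. Of the 100-base stretches of each gene, at most 0.574% (*Terf1*) also occur in another annotated gene.

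Markers of several cell types moved with the groups. Calls are common in these data: 70.3% of all tested genes were called, 36.2% higher and 34.1% lower. All 8 fibroblast markers were detected, with a summed level of 14035 to 15897 CPM in control and 5844 to 6973 CPM in senescent cells. Of them, 3 were higher, *Dcn* (log2 fold change 3.50), *Thy1* (1.47) and *Lum* (0.85). Another 4 were lower, the abundant *Col1a1* (-2.54), *Col1a2* (-1.87) and *Vim* (-0.74), and *Pdgfra* (-0.46). *Pdgfrb* was not called. Cartilage markers, of which *Sox9*, *Acan*, *Col2a1* and *Col9a1* were lower, summed to 4636 to 5156 CPM in control and 312 to 380.2 CPM in senescent cells. The fifth, *Matn1*, had 0 to 1 counts per control library and 8 to 10 per senescent library, too few to be tested. Macrophage markers, of which 4 of 5 were found by name and all 4 were higher, summed to 5.69 to 6.44 CPM in control and 13.6 to 15.8 CPM in senescent cells. The 4 endothelial markers, all higher, summed to 2.43 to 2.83 CPM in control and 7.38 to 8.08 CPM in senescent cells. The 6 keratinocyte markers summed to 16.2 to 17.0 CPM in control and 9.41 to 9.82 CPM in senescent cells, with *Trp63* lower (log2 fold change -1.65), *Cdh1* higher (1.98) and the other 4 not called or not tested. The 4 muscle markers summed to 15.5 to 20.9 and 14.9 to 27.6 CPM, with *Des* higher (1.94) and none lower. None of these markers was at 0 in all 6 libraries. The part of these cells in the changes of the telomere genes was not tested.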

How the data were processed

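Raw read counts per gene were deposited without normalization. The authors ran MAPRSeq on paired-end reads of stranded poly(A) libraries, which aligned them by STAR (genome mm10), and counted reads per gene by Subread, per the labels and the methods. The annotation release and the strand setting of the counting are not given in the sources used here.

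Groups and replicate numbers came from the sample labels, and the 21 days of culture from the methods. Genes were kept by edgeR's filterByExpr, scaled by TMM, and compared by edgeR's robust quasi-likelihood test (edgeR 4.0.16, R 4.3.3) with group as the only term. Standard errors were derived from the F statistic. Ratios within libraries were tested by exact permutation. Alternatives were RLE scaling, library size alone, other count filters, DESeq2 1.42.0, a replicate term, and leaving out each library. Strands and exon overlaps came from GENCODE M21, whose models differ from the table's for 5 of the 10 genes, and promoters from RefSeq.

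Genes named by rule were the 10 genes, up to 3 called genes per direction with the smallest p in each list, any list gene with at most 3 counts in every library (none), the 3 genes most like the one with the largest change over all 6 libraries, and genes overlapping the 10. *Ten1*, *Nhp2*, *Nop10*, *Gar1* and *Terc* were named outside it, after their values were seen. The genes and lists were chosen with earlier results of these data known. Fibroblast, keratinocyte, macrophage, endothelial, muscle and cartilage markers were summed, and a further marker list is not reported here. Reads carried no molecular identifiers. The intervals given came from edgeR's quasi-likelihood fit, so they cover the spread between libraries of a group as well as counting error.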

Additional observations from a re-analysis of the deposited data

How the results depend on the processing

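All 10 genes kept their direction under each of the 12 alternatives, and *Terf1*, *Terf2*, *Tinf2*, *Acd*, *Pot1a*, *Pot1b*, *Rtel1* and *Dkc1* also kept their call. The adjusted p of *Terf2ip* ranged from 0.00691 to 0.104 and that of *Tert* from 0.0187 to 0.0727. Leaving out each library in turn gave 1 to 2 higher genes and 7 to 8 lower genes of the 10, and 5 to 9 higher of the 39 partners. The lower end was 1 without control replicate 2 or control replicate 3, where *Terf2ip* was lost, and 5 without control replicate 1. Over all tested genes, these fits called from 5930 (without control replicate 2) to 7052 (without senescent replicate 3) higher. They called from 5284 to 6643 lower in the same 2 fits, against 6360 higher and 6005 lower with all libraries. Deviations of same-numbered control and senescent libraries from their group means had correlations of -0.374, 0.293 and -0.263. Libraries of different number ranged from -0.436 to 0.501. Centering within groups of 3 ties these values together, so they cannot decide whether the replicate numbers pair the libraries. With a replicate block, 1 of the 10 genes was higher in place of 2 (*Terf2ip*, adjusted p = 0.0637, edgeR). In that fit 8 were lower and 3 passed the limit of the study's methods. Over all 17589 tested genes, the block fit called 5964 higher and 5660 lower, against 6360 and 6005 without the block. Scaling by library size alone moved the median log2 fold change of all genes from 0.01 to 0.09, and keeping genes down to 1 count in total moved it to 0.31. The causes were not tested. With 3 libraries a group, the exact tests of ratios cannot go below p = 0.1, and *Terc* is limited by depth.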
